A study of Mus musculus with 4 samples.

Results

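The genes described here are 34 markers of macrophages and of antigen presentation, read in cells that were purified as myogenic cells from regenerating mouse muscle. They were chosen by name from a fixed list, and every probe set whose platform annotation gave 1 of these names as its only gene symbol was used. All 34 genes had at least 1 probe set, 53 in all, among 12394 genes named by 1 symbol. The cells came from hind-limb muscle of C57BL/6 mice, 8 to 12 weeks old, in which cardiotoxin, a venom toxin that kills muscle fibres, had been injected. They were taken 2, 3, 5 and 14 days after the injury and were not cultured, and all 4 groups share the strain, the age range and the injury. No uninjured muscle was analysed here. The antibody given is SM/C-2.6, which binds satellite cells, and the labels do not say which other surface markers were used or how many mice stand behind a sample. There is 1 Affymetrix array for each day, hence no replicate, no test and no p-value below, and a gene is called where its signals on 2 arrays differ by 2-fold or more.

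Macrophages clear the debris of damaged fibres after muscle injury, and later populations of them accompany the growth of new fibres. They are recognised by the growth factor receptor CSF1R, by Fc and complement proteins, by scavenger receptors and by lysosomal enzymes. Antigen-presenting cells carry MHC class II, a pair of alpha and beta chains that is assembled on the invariant chain CD74 and displays peptides to helper T cells. Satellite cells, the stem cells of muscle, are not leukocytes. In a bulk sample, fewer cells of a type and less RNA per cell cannot be told apart.

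Signals are MAS5 signals in arbitrary units after scaling of the arrays to a common trimmed mean. The pooled median of the scaled signals, 43.0, serves as a floor, and values under it have no order. Where 1 array lies under the floor the ratio is a lower bound, written as at least N-fold. Where both do, the gene counts as not measured. A gene with several probe sets is represented by the one with the highest mean log2 signal. Apart from summed signals, which add different probe sets and include values under the floor, no level is set against that of another probe set.

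The promoters of 4 members are shown, a pair from MHC class II and a pair from the macrophage genes, whose signals stood higher together on day 5. The sequences are those of RefSeq, build GRCm38.p6, and its promoter table held 21 of the 34 members. Each runs from 250 bases before to 50 after the annotated start of the gene. H2-Aa (chr17:34287774-34288073, minus strand) and H2-Eb1 (chr17:34305617-34305916, plus strand) encode an alpha and a beta chain of MHC class II. Promoters of this family carry an X box, bound by RFX factors, and a Y box, a CCAAT box in reverse bound by NF-Y. Capitals mark GCAAC, letters found in X boxes, and CTGATTGG, letters found in Y boxes, which contain CCAAT on the other strand.
H2-Aa: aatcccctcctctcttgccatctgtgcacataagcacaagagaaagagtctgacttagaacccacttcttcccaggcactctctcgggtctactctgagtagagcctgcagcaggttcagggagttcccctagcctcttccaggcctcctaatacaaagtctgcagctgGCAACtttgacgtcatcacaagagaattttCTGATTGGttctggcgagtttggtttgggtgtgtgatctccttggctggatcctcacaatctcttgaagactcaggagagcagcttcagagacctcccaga
H2-Eb1: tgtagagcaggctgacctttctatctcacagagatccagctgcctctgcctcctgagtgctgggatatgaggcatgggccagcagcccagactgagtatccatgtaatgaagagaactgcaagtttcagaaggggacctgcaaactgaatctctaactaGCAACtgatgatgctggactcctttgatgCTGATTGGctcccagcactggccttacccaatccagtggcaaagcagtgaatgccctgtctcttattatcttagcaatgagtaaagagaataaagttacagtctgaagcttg
In H2-Aa the CTGATTGG match began 51 bases and the GCAAC match 81 bases before the start. In H2-Eb1 they began 62 and 91 bases before it, so both promoters held both motifs in the same order and on the same strand. These 2 motifs were picked after the sequences had been read. On either strand, CTGATTGG was found in 4.10% and GCAAC in 35.2% of the 32851 promoters of the table. CCAAT was found in 37.4% of them and in 12 of the 21 members. ACAGATG, another string of X boxes, was found in 5.01% and in H2-Aa alone of the members. That H2-Aa match is on the other strand, is not marked and lies far upstream of the GCAAC match, not beside it.

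Ctss (chr3:95526536-95526835, plus strand) encodes the lysosomal protease cathepsin S, and C1qb (chr4:136886151-136886450, minus strand) a chain of complement C1q. Capitals mark GAGGAA or its reverse complement, a core string of sites for PU.1, the macrophage transcription factor that the member Spi1 encodes.
Ctss: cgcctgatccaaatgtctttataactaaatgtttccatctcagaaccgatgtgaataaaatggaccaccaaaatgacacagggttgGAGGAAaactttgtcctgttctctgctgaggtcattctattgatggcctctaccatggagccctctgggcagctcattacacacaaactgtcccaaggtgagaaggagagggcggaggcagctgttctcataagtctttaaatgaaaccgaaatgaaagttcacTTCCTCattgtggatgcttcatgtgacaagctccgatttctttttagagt
C1qb: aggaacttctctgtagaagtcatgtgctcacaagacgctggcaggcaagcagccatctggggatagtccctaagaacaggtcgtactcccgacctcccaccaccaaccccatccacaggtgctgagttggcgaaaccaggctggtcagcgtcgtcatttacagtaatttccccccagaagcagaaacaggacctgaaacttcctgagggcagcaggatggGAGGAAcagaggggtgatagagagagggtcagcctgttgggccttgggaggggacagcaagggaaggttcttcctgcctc
GAGGAA was found on either strand in 28.3% of all promoters and in 12 of the 21 members. A match describes the letters and does not show a bound site.

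Few of these genes gave a signal on the day 2 array, and most did from day 5 on. Of the 34 members, those above the floor numbered 6, 14, 25 and 26 on days 2, 3, 5 and 14. Over all 12394 named genes the shares above the floor were 50.5%, 55.5%, 58.5% and 60%, against 17.6%, 41.2%, 73.5% and 76.5% of the members on the same days. At this floor, 43.0, the members thus began under the share of all genes and ended over it. Some members only just passed it: Cd53, Fcer1g and Cd52 on day 5, at 43.2, 43.8 and 43.9, and Trem2 on day 14, at 43.1. These shares were not read again at another floor. The 6 members above the floor on day 2 were Lgals3, Cd14, Lyz1, Lyz2, Ctss and Ctsc, and these 6 lay above it on every array. Of the 28 members under the floor on day 2, 8 were above it on day 3, 19 on day 5 and 20 on day 14. The same held for 11.9%, 19.3% and 23.0% of all 6136 genes that were under the floor on day 2.

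**Figure D1:**
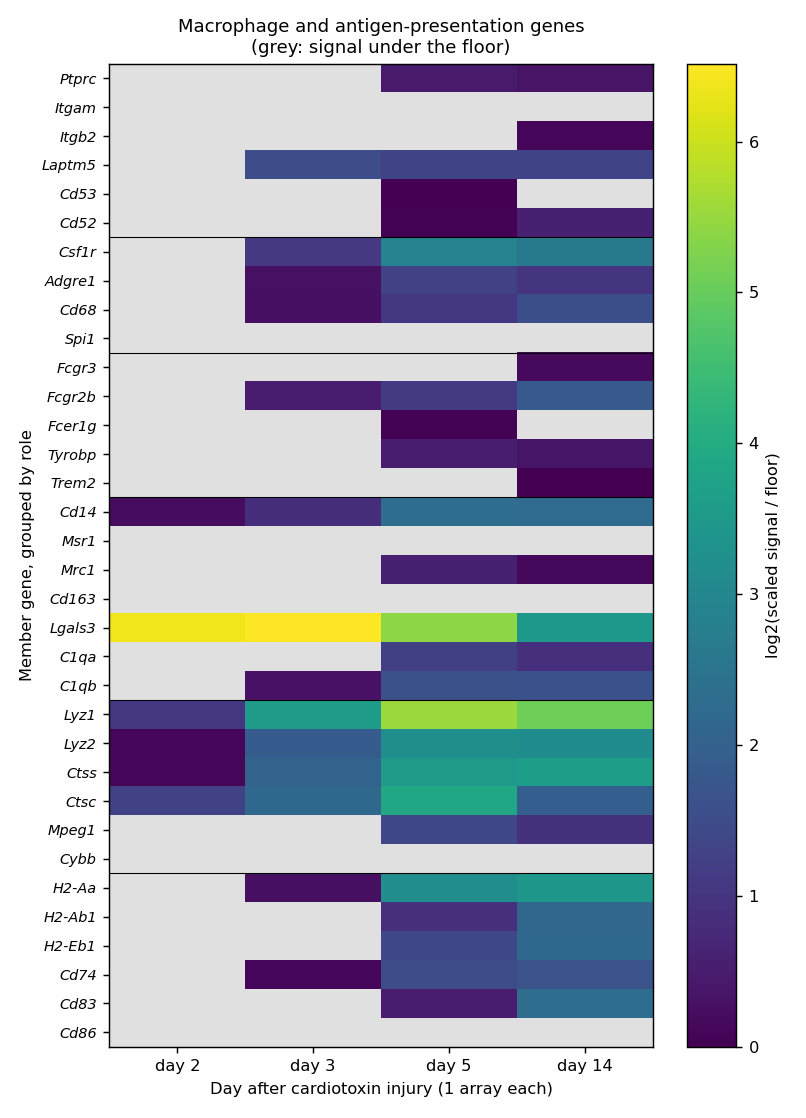
Signal of the 34 members on the arrays of days 2, 3, 5 and 14 (columns, 1 array each), as log2 of the scaled signal over the floor, by role (rows, split by lines); grey is under the floor, and colours are to be compared along a row only. On day 2, 6 rows are coloured and on day 14, 26, and Lgals3 is the row with its brightest cells on days 2 and 3.

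The summed signal of all 34 members was 4248, 5959, 7897 and 5975 on days 2, 3, 5 and 14. Lgals3 made up most of it on days 2 and 3, and the sum over the other 33 was 664, 2028, 6081 and 5493. A few strong probe sets weigh most in such a sum. On day 5, 1980 of the 6081 came from 1 probe set of Lyz1, whose second probe set read 212. Of the 28 members above the floor on some array, none had its highest signal on day 2, 2 had it on day 3, 13 on day 5 and 13 on day 14. Most differences between days 5 and 14 were under 2-fold. Of those highest on day 5, Ctsc alone was called lower on day 14. Of those highest on day 14, only H2-Ab1 and Cd83 were called higher than on day 5. Of all 7930 genes above the floor on some array, 26.9%, 16.7%, 20.5% and 35.9% had their highest signal on days 2, 3, 5 and 14. The members under the floor on every array were Itgam, Spi1, Msr1, Cd163, Cybb and Cd86.

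Surface and membrane markers of leukocytes mostly stayed near or under the floor. Ptprc, the pan-leukocyte phosphatase CD45, read 13.1, 14.1, 59.7 and 54.5 on days 2, 3, 5 and 14. Itgb2, the shared beta chain of leukocyte integrins, read 8.67, 23.8, 35.0 and 46.8, and its partner Itgam, the CD11b chain of myeloid cells, 12.7, 1.93, 10.4 and 6.83. CD45 passed the floor on days 5 and 14 and Itgb2 on day 14 alone, while Itgam passed it on no array. Cd53, a leukocyte tetraspanin, read 6.58, 23.8, 43.2 and 32.4, above the floor on day 5 alone. Cd52, a small glycosylated surface protein of lymphocytes and myeloid cells, read 10.9, 19.7, 43.9 and 63.6. The exception was Laptm5, a lysosomal membrane protein of blood cells, which reached its level early: 31.6, 126, 109 and 106 on days 2, 3, 5 and 14. Laptm5 was at least 2.92-fold higher on day 3 than on day 2 and differed by less than 2-fold between the 3 later days. Its second measured probe set gave a log2 ratio of 1.07 at the same step.

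Of the genes of macrophage identity, Csf1r, Adgre1 and Cd68 lay above the floor from day 3 on and Spi1 on no array. Csf1r, the receptor for the macrophage growth factor, read 20.2, 91.0, 316 and 269 on days 2, 3, 5 and 14. It was 3.47-fold higher on day 5 than on day 3. Its 3 probe sets gave log2 ratios from 0.51 to 1.79 for that step, all above 0. Adgre1, the adhesion receptor F4/80 of mouse macrophages, read 23.7, 52.6, 105.5 and 86.5, and its 2.01-fold ratio of day 5 over day 3 lies at the edge of a call. Cd68, a lysosomal glycoprotein, read 24.4, 51.8, 88.8 and 128, highest on day 14. Adgre1 and the probe set that represents Csf1r were highest on day 5. The other Csf1r probe sets were highest on day 14, at 87.7 against 84.3 on day 5 and at 96.8 against 68.5. Spi1, which encodes PU.1, read 12.4, 20.2, 34.6 and 29.0 and was not measured.

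Of the Fc receptors and their adaptors, 1 stood clear of the floor. Fcgr2b, the inhibitory receptor for IgG, read 16.9, 60.4, 92.3 and 151 on days 2, 3, 5 and 14, and was 2.51-fold higher on day 14 than on day 3. Fcgr3, an activating IgG receptor, read 0.70, 7.59, 31.4 and 48.3, close to the floor at its highest. Tyrobp, the signalling adaptor DAP12, read 1.0, 28.7, 61.4 and 55.5, and Trem2, a lipid receptor that signals through it, 13.1, 24.0, 35.0 and 43.1. Fcer1g, the shared gamma chain of Fc receptors, read 13.7, 5.55, 43.8 and 36.0. None of these 4 genes was called in any comparison, but their measured ratios against days 2 and 3 were lower bounds. With no floor and log2 of the signal plus 16, Tyrobp gave a log2 ratio of 2.19 for day 5 over day 2. By that measure Fcgr3 and Trem2 gave 1.95 and 1.02 for day 14 over day 2, and Fcer1g 1.47 for day 5 over day 3. Of the 4 Fcgr2b probe sets, the other 3 stayed under the floor on every array.

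Of the genes of recognition, scavenging and complement, Cd14, C1qa and C1qb were higher on day 5 than on day 3, while Lgals3 was lower. Cd14, the co-receptor for bacterial lipopolysaccharide, read 49.8, 77.4, 217 and 209 on days 2, 3, 5 and 14, and was 2.80-fold higher on day 5 than on day 3. C1qa and C1qb, chains of the complement starter C1q, were at least 2.35-fold and 2.46-fold higher at that step. The C1qb call was kept under 4 of 8 alternatives, with log2 ratios from 0.71 to 1.60, and its probe sets gave 0.39 to 1.30. The C1qa call was lost with a floor at the 60th percentile, at 0.32. C1qa read 1.10, 42.3, 101 and 78.3, and C1qb 1.30, 53.8, 132 and 134, so both were near 0 on day 2. Mrc1, the mannose receptor of repair macrophages, read 22.6, 30.9, 64.3 and 47.1, and was not called. Its ratios against days 2 and 3 are lower bounds, and day 5 over day 2 gave a log2 ratio of 1.06 with no floor. The scavenger receptors Cd163 and Msr1 were highest at 12.5 and 17.7, well under the floor.

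Lgals3, the sugar-binding protein galectin-3, was the member with an opposite course. It read 3584, 3931, 1816 and 481 on days 2, 3, 5 and 14. It was 2.17-fold lower on day 5 than on day 3, a call that was lost with the values as deposited and after quantile normalization (log2 ratios of -0.81 and -0.98), and 3.77-fold lower on day 14 than on day 5, and over the whole course 7.45-fold lower on day 14 than on day 2. Galectin-3 is an abundant product of macrophages, known under the name Mac-2, and many other cell types also make it. Lgals3 was lower on day 14 than on day 2 by its single probe set, while Csf1r, Cd68, Ctss and C1qb were called higher on day 14 than on day 2.

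Of the 6 genes of the lysosome and oxidase role, 4 lay above the floor on day 2 and 3 of these, Lyz1, Lyz2 and Ctss, were called higher on day 3. Lyz1 and Lyz2 are closely related genes for lysozyme, which breaks down bacterial cell walls. Lyz1 read 88.3, 510.3, 1980.0 and 1438 on days 2, 3, 5 and 14. Lyz2 read 46.4, 160, 407 and 389.6. Lyz1 was 5.78-fold higher on day 3 than on day 2 and 3.88-fold higher on day 5 than on day 3, and Lyz2 3.45-fold and 2.54-fold. A second probe set of Lyz1 read 38.3, 136, 212 and 267, highest on day 14, and the other stayed under the floor. Their probe sets may bind both transcripts, so the 2 genes are not independent readings. Ctss read 46.8, 180, 482 and 529.5 on days 2, 3, 5 and 14, which made it 3.85-fold higher on day 3 than on day 2, 2.67-fold higher on day 5 than on day 3 and 1.10-fold higher on day 14 than on day 5. Mpeg1, the pore-forming protein perforin-2, read 2.29, 16.3, 112 and 82.8 and was at least 2.60-fold higher on day 5 than on day 3. Cybb, the membrane subunit of the phagocyte oxidase, stayed between 1.20 and 3.22 on all 4 arrays.

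Ctsc, the protease cathepsin C, had a peak of its own. It read 104, 195, 647 and 165 on days 2, 3, 5 and 14. Day 5 was 3.32-fold above day 3, and day 14 was 3.92-fold below day 5. Ctsc was thus the only one of the 5 measured members of its role that was lower by more than 2-fold on day 14 than on day 5, where the other 4 were within 2-fold. Both of these Ctsc calls held under each of the 8 alternatives that could change a ratio.

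**Figure D2:**
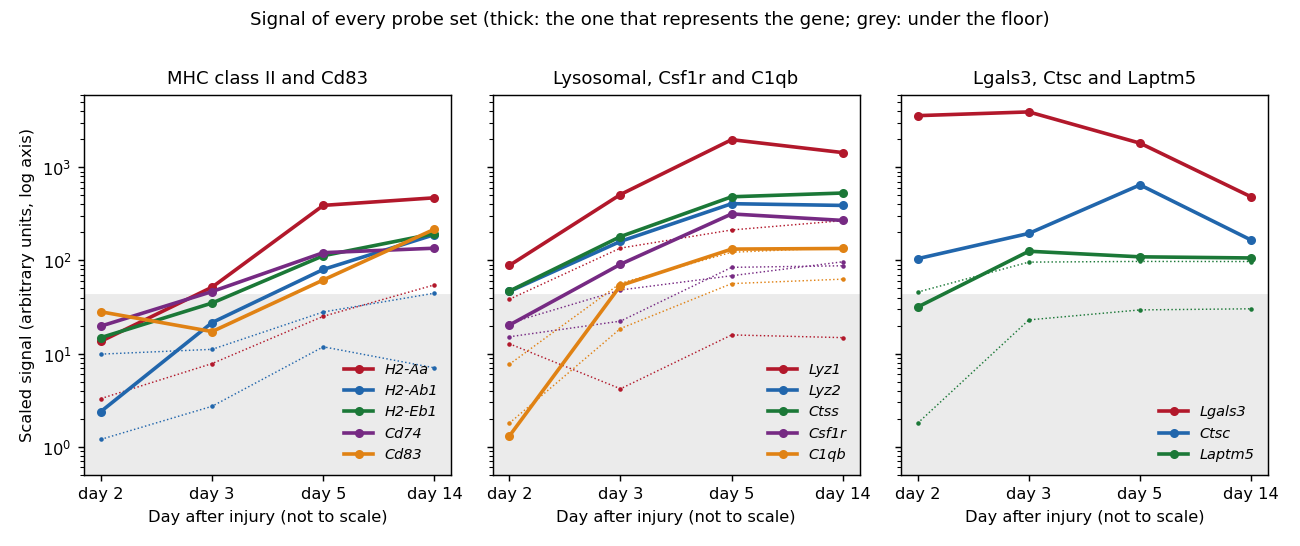
Scaled signal on a log axis by day (1 array each) for every probe set of 13 members; the thick line is the probe set that represents the gene, dotted lines are its other probe sets, and grey is under the floor. By the thick lines, MHC class II genes and Cd83 were highest on day 14, and Lyz1 and Csf1r on day 5. The other probe sets of Lyz1 and Csf1r that passed the floor were highest on day 14. Lgals3 was 481 on day 14 after 3931 on day 3, and Ctsc stood at 647 on day 5.

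MHC class II genes lay under the floor on day 2, little above it at most on day 3, and clear of it on days 5 and 14. H2-Aa read 13.6, 51.7, 390.1 and 470.4 on days 2, 3, 5 and 14, and was 7.55-fold higher on day 5 than on day 3, the largest ratio among the 14 members above the floor on both arrays. H2-Ab1, the partner beta chain of H2-Aa, read 2.39, 21.5, 80.1 and 189, and was 2.36-fold higher on day 14 than on day 5. H2-Eb1, the beta chain of the second class II pair, read 14.9, 34.9, 112 and 194. Cd74 read 19.7, 46.3, 121 and 135, and was 2.61-fold higher on day 5 than on day 3. These 4 genes were highest on day 14. Set against day 3, day 14 was at least 4.41-fold higher for H2-Ab1 and at least 4.52-fold for H2-Eb1, 9.10-fold for H2-Aa and 2.92-fold for Cd74.

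The 2 other genes of this role differed. Cd83, a surface protein of mature antigen-presenting cells that stabilises class II, read 28.1, 17.2, 61.7 and 216 on days 2, 3, 5 and 14. It was 3.51-fold higher on day 14 than on day 5, the largest increase among the 28 ratios at that step, of which 5 are bounds. Cd86, the co-stimulatory ligand of T cells, read 2.09, 19.6, 32.1 and 27.7. Cd86 was not measured in any comparison.

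The size of the class II signals depended on the probe set. The second probe set of H2-Aa read 3.29, 7.82, 25.1 and 54.7 and passed the floor on day 14 alone. The other 2 of H2-Ab1 read 9.87, 11.1, 28.0 and 44.5, and 1.20, 2.72, 11.8 and 7.03. For day 14 over day 3, the measured probe sets gave log2 ratios of 0.35 and 3.19 for H2-Aa and of 0.05 and 2.14 for H2-Ab1, where all but the 3.19 are bounds set by the floor. C57BL/6 mice carry a defective H2-Ea gene and make no alpha chain for the H2-Eb1 pair. The 3 probe sets of H2-Ea stayed between 1.02 and 23.1 on all arrays.

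Other genes of class II presentation were described from a separate list of 14. Of these, 12 had a probe set and 5 were measured at day 5 against day 3. Rfx5, a subunit of the RFX complex that binds X boxes, read 63.9, 88.7, 228 and 255 on days 2, 3, 5 and 14, and was 2.57-fold higher on day 5 than on day 3. Lgmn, a lysosomal protease, was 3.19-fold higher at that step, while Ifi30, a lysosomal thiol reductase, read 419 on day 5 and 349.5 on day 3. Rfxank and Rfxap, the other RFX subunits, read 68.7 and 137 on day 5, against 39.0 and 183 on day 3. Ciita, the master coactivator of class II genes, was at most 12.6 on any array and probe set, and H2-DMa, a chaperone of peptide loading, at most 41.6. None of the 5 passed 2-fold at day 14 against day 5.

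Set against the whole array, the members' calls came mainly on day 3 and day 5. For day 3 against day 2, 14 members were measured, of which 5 were called higher (Lyz1, Ctss, Lyz2, Laptm5 and Csf1r) and none lower. The calls of Lyz1 and Ctss were kept under every alternative that gave them a ratio. That of Csf1r was lost with the values as deposited, with the mean over probe sets and with a floor at the 60th percentile, at log2 ratios of 0.91, 0.62 and 0.17, and those of Lyz2 and Laptm5 with that floor, at 0.99 and 0.64. Among all 6991 genes measured, 6.69% were called higher and 1.80% lower. The members' median log2 ratio was 0.56, against 0.06 for all genes. For day 5 against day 3, 25 members were measured, of which 13 were called higher and 1, Lgals3, lower, where 11.6% and 5.97% of 7523 genes were called. Their median log2 ratio was 1.0, against 0.06 for all genes. A member that was measured only because it passed the floor on 1 of the 2 days could not give a ratio of 0, so these counts and medians are descriptions. At the first step 57.1% of the members measured, against 12.2% of all genes, were of this kind, and at the second 44.0% of the members. The split of all calls moved with the scaling: 468 genes were higher and 126 lower at the first step, and 320 and 288 with the values as deposited, while at the second it was 874 and 449, and 1381 and 199. With the floor at the 60th percentile, 80.7, 2 of 7 members were called higher at the first step and 7 of 17 at the second, beside 5.09% and 9.74% of all genes.

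Between day 5 and day 14 few members were called, and few of all genes were. Of 28 members measured, 2 were called higher on day 14, H2-Ab1 and Cd83, and 2 lower, Lgals3 and Ctsc, with 24 not called. Among all 7709 genes measured, 4.81% were called higher and 3.10% lower. As deposited, 319 genes were higher and 313 lower, in place of 371 and 239. The median log2 ratio was -0.02 for the members and 0.01 for all genes. By role, the 5 measured genes of MHC class II and co-stimulation had a median of 0.79 and all 5 were above 0, while the 5 of the lysosome and oxidase role had a median of -0.43 with 1 above 0. The call for H2-Ab1 rests on 1 probe set and was lost with the mean over its probe sets, at a log2 ratio of 0.65.

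**Figure D3:**
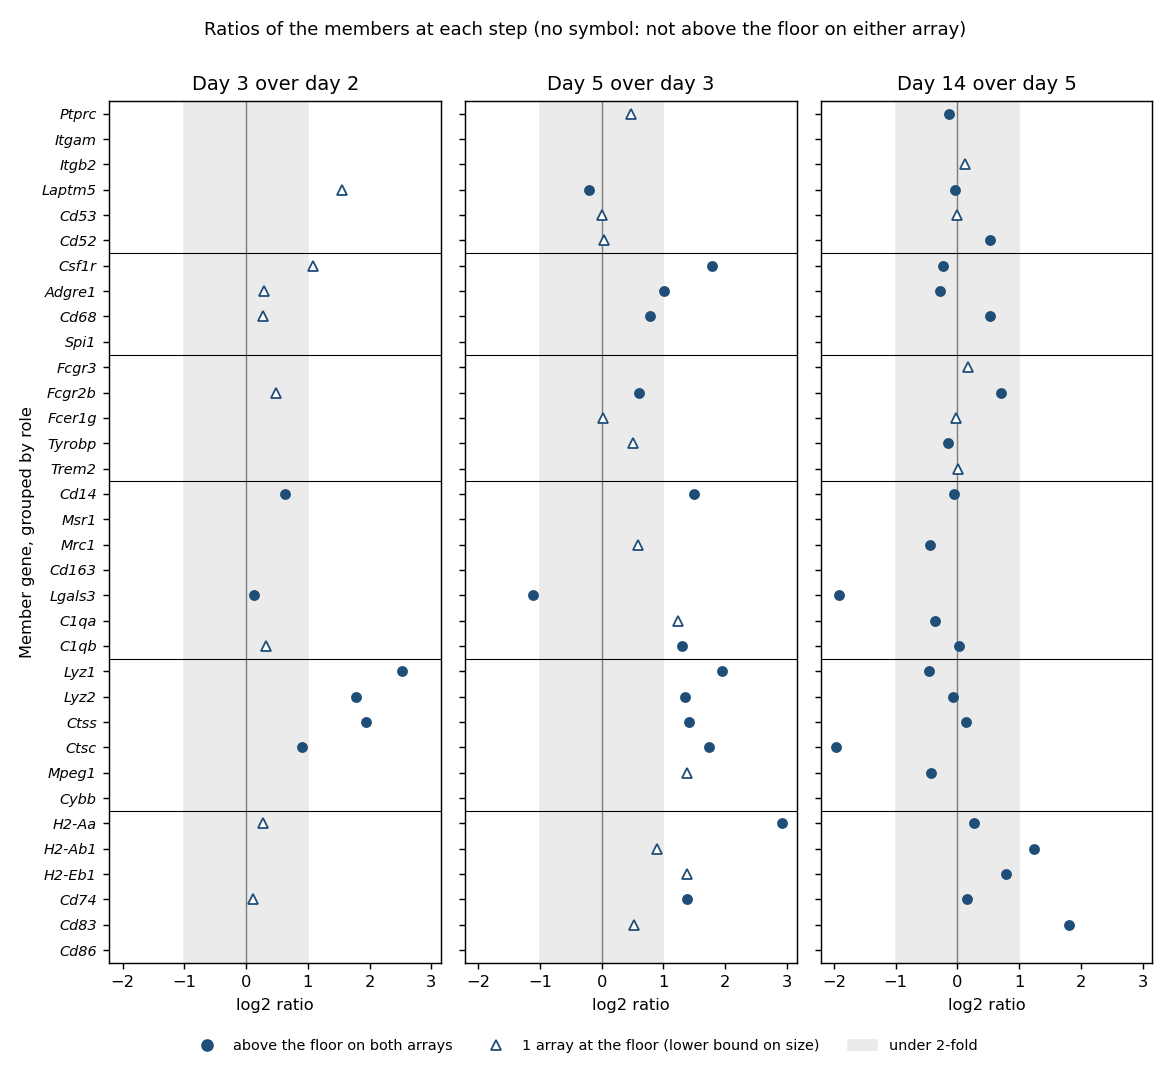
Log2 ratio of each member at the 3 steps (panels: day 3 over day 2, day 5 over day 3, day 14 over day 5), by role; filled circles were above the floor on both arrays, open triangles on 1 array only and are bounds, and the grey band is under 2-fold. In the middle panel 13 members lie at or right of the band and Lgals3 left of it, and in the right panel Cd83 and H2-Ab1 lie right and Lgals3 and Ctsc left.

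Labels of the day 2 and day 5 samples share 1 wording and those of day 3 and day 14 another, and what this marks is not given. Each of the 3 steps crosses the 2 wordings, so the comparisons within a wording are given as well. For day 5 against day 2, 16 of 25 measured members were called higher and none lower, where 19.8% of 7445 genes were called higher and 11.4% lower. The ratios were 22.4-fold for Lyz1, 10.3-fold for Ctss, 8.76-fold for Lyz2 and at least 9.08-fold for H2-Aa. For day 14 against day 3, 13 of 26 were called higher and 1, Lgals3, lower at 8.17-fold, where 16.3% of 7774 genes were called higher and 11.5% lower. These 2 comparisons share no array. The members' median log2 ratio was 1.30 in the first and 1.11 in the second, against 0.16 and 0.09 for all genes. As bounds count 76.0% of the members and 18.5% of all genes in the first, and 46.2% and 15.9% in the second, so these medians too are descriptions. The split of all calls moved here as well: for day 5 against day 2 it was 1471 higher and 848 lower, and 1165 and 1193 with scaling to a common 75th percentile, where 15 members were higher and 1 lower. For day 14 against day 3 it was 1270 and 896, and 1621 and 614 with the values as deposited. Between the ends of the course, day 14 and day 2, 15 of 26 were called higher and 1 lower, with 22.8% of 7668 genes called higher and 14.8% lower.

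Further lists covered other macrophage genes and other blood cells. Of 28 further macrophage genes with a probe set, 5, 6, 11 and 11 lay above the floor on days 2, 3, 5 and 14, shares of 17.9%, 21.4%, 39.3% and 39.3%. At day 5 against day 3, 4 of 11 measured were called higher, beside 11.6% of all genes, and 5 of the 11 ratios were bounds. C1qc, another C1q chain, was at least 2.58-fold, Ms4a7, a membrane protein of macrophages, at least 2.60-fold, Clec7a, the beta-glucan receptor dectin-1, at least 2.41-fold and Cyba, an oxidase subunit that many cells make, 2.40-fold higher. Aif1, Siglec1, Cx3cr1, Ccr2 and Vsig4 stayed under the floor on every array. Of 23 leukocyte cytosolic and signalling genes, 1, 3, 5 and 7 lay above the floor on days 2, 3, 5 and 14. These shares, 4.35%, 13.0%, 21.7% and 30.4%, were also below those of all genes. All 15 lymphocyte and all 7 mast cell markers with a probe set lay under it on every array, and so did 11 of 12 neutrophil markers, with Mmp9, a matrix protease that other cells also make, at 171 on day 5 as the exception. Of 8 dendritic cell markers with a probe set, 6 lay under the floor on every array. The others were Irf8, a transcription factor shared with macrophages, and Itgax, the CD11c integrin chain. Irf8 was 3.43-fold higher on day 14 than on day 5, at 164 against 47.9, and Itgax read 48.7 on day 14, close to the floor.

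**Figure D4:**
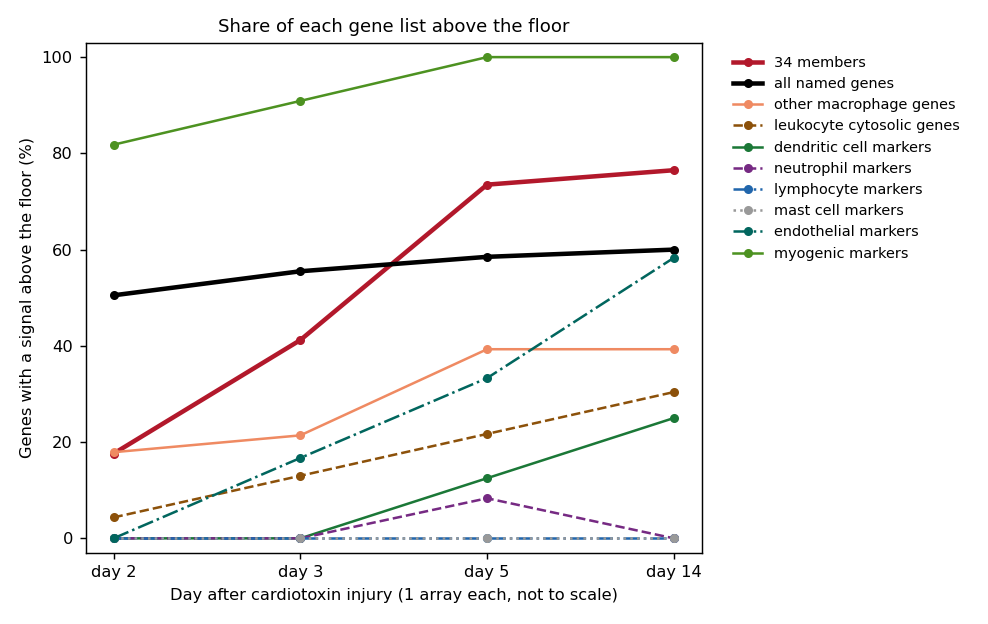
Percentage of genes with a signal above the floor on each array (days 2, 3, 5 and 14, 1 array each) for the 34 members, all named genes and 8 other lists. The members stand at 17.6% on day 2 and 76.5% on day 14, all genes at 50.5% and 60%, and lymphocyte and mast cell markers stay at 0.

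The arrays carried the signals of their label. Of 11 myogenic markers with a probe set, 9 lay above the floor on day 2, 10 on day 3 and all 11 on days 5 and 14. Those under it on day 2 were Pax7, at 35.7, 59.4, 217 and 323 on the 4 days, and Calcr, at 10.4, 10.3, 49.5 and 615. Cdh15, the adhesion protein M-cadherin, read 350.01, 1606, 1884 and 1653. Myod1, the myogenic transcription factor MyoD, read 2272, 1405, 500.2 and 935. For day 14 against day 2, 7 of the 11 myogenic markers were called higher and 2 lower, beside 22.8% and 14.8% of all genes. Their median log2 ratio was 2.24 and that of the members 1.44, with 18.2% and 76.9% of the ratios bounds. Markers of non-blood cells moved beside the members: endothelial markers above the floor numbered 0, 2, 4 and 7 of 12 on days 2, 3, 5 and 14, with a summed signal of 184, 280.4, 434 and 988. Fibroblast markers above it numbered 1, 4, 6 and 7 of 12, with sums of 193, 443, 3382 and 8581, of which Dpt, a matrix protein, alone made up 32.5, 70.7, 1430.3 and 5877. For Gapdh, the signal near the 3' end over that near the 5' end, which tells of shortened RNA, was 2.17, 1.88, 2.87 and 2.84 on days 2, 3, 5 and 14. For Actb it was 1.80, 2.20, 2.19 and 2.14, a different course. Their part in the members' differences was not tested. The median of all scaled signals was 29.5, 41.7, 49.1 and 52.8 on the 4 days, lowest on the day when most members lay under the floor. Probe sets of 1 gene differed in their log2 ratio with an SD of 0.36, 0.37 and 0.32 at the 3 steps (2069, 2197 and 2323 genes). Variation among mice is not part of this spread.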

How the data were processed

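Myogenic cells of 4 samples, 1 for each of days 2, 3, 5 and 14 after cardiotoxin, were measured on Affymetrix mouse 430A arrays after a labelling assay for small samples, per the labels' protocols. The authors deposited an intensity for every probe set, made with MAS5 per the submitters' processing notes, whose settings the sources used here do not give. The deposited intensities reached from 0 to 15686 on a linear scale with no value below 0, which shows no centring, and had medians of 29.6, 36.8, 53.5 and 54.1 on days 2, 3, 5 and 14. With 4 arrays, their number limits the precision.

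With Python 3.11.15, numpy 2.4.6 and pandas 2.3.3, arrays were brought to 1 shared 2% trimmed mean (factors 0.997, 1.13, 0.917 and 0.976), values under the pooled median were set to that floor, and log2 values were subtracted. This was tested on made-up arrays with known changes. Of 22690 probe sets, the platform annotation gave 20393 a single symbol and 691 several, which were left out. The gene ID of 20364 was found in the RefSeq table. No sample is replicated, so no test was made, and counts and medians stand beside those of all genes. The plan was to name all 34 members and genes of 12 further lists (171 genes, 158 with a probe set). From each list it allowed called genes, up to 4 by size, or measured genes where 5 or fewer were measured. This plan was not kept throughout. More than 4 called genes of the other macrophage list are named, and the called Pf4 is not described. Of the myogenic markers, Cdh15 and Myod1 are described, but not Msc, Myog and Myf5, whose largest ratios were greater. Not every gene the plan allows is named. Genes of these lists named as lying under the floor were chosen after their values were seen. The members, lists, comparisons and 10 alternatives were chosen with earlier results of these data known. The 4 arrays enter 6 comparisons, so most of these share an array. The number of mice per sample is not given.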

Additional observations from a re-analysis of the deposited data

How the results depend on the processing

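Under 10 alternatives, 84 of 108 counts and medians of the members were within 1.5 times their value, or for medians within the SD between probe sets of a gene, and no member called at 2-fold changed its sign. Of 1027 single ratios, 44 lost and 55 gained a call. With the floor at the 40th percentile, the count called higher for day 3 against day 2 was 10, where 22 members were measured, beside 9.28% of all genes. The members' median log2 ratio was then 0.93, and their median for day 5 against day 2 was 1.83. With the floor at the 60th percentile, the counts were 2 of 7 measured (day 3 over day 2), 7 of 17 (day 5 over day 3, median 0.59), 7 of 17 (day 5 over day 2, median 0.59) and 9 of 18 (day 14 over day 2). Of all genes, 5.09%, 9.74%, 16.1% and 19.3% were called higher in these 4 comparisons. At day 5 over day 3 the lost calls were those of Adgre1, C1qa, C1qb, Mpeg1, H2-Eb1 and Cd74, which were still measured, with smaller ratios against the raised floor. With no floor and log2 of the signal plus 16, the counts were 11, 26 and 25 of 34 for day 3, day 5 and day 14 against day 2. Of all genes, 6.62%, 15.4% and 19.3% were then called higher. Without probe sets whose suffix marks possible cross-hybridisation, which leaves 7 members with none, the counts were 3 of 8 measured (day 3 over day 2), 1 of 20 (day 14 over day 5), 10 of 17 (day 5 over day 2), 8 of 18 (day 14 over day 3) and 8 of 18 (day 14 over day 2). Of all genes, 6.65%, 5.1%, 19.6%, 16.9% and 23.3% were called higher in that order. With the mean over probe sets, 1 of 28 was called higher on day 14 against day 5, beside 4.29% of all genes. Called at 3-fold, the counts were 3 of 14 (day 3 over day 2), 4 of 25 (day 5 over day 3), 1 of 28 (day 14 over day 5), 8 of 25 (day 5 over day 2) and 4 of 26 (day 14 over day 3). Of all genes, 2.27%, 4.2%, 1.7%, 9.43% and 7.58% passed 3-fold upwards in that order. At 1.5-fold, 4 of 28 members were higher for day 14 against day 5, beside 12.2% of all genes. The share of all genes called higher also moved with the scaling, for day 5 against day 3 to 18.2% with the values as deposited and to 9.95% after quantile normalization, where 15 and 11 members were called higher. Under the values as deposited the median of all genes for that step was 0.33. No paired analysis was possible because each day has 1 array.

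Signal over background limits the leukocyte surface, Fc receptor and Cd86 values, which lie near or under the floor on most arrays. Leaving out a replicate was not possible, as no day has more than 1.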

Other observations

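Genes of macrophage secretion were read from 2 further lists, and some of these are made by other cells as well. Among 10 inflammatory products, 4 were measured at day 5 against day 3 and 3 were called higher, where 11.6% of all genes were. Il6, a cytokine that muscle cells also secrete, read 125, 139, 367 and 507 on days 2, 3, 5 and 14. Cxcl10, a chemokine induced by interferon, read 38.6, 81.3, 219.5 and 179.9. Ptgs2, the inducible cyclooxygenase, read 67.6, 62.7, 296 and 56.4, so its peak on day 5 had the shape of that of Ctsc and of Mmp9, which read 17.4, 34, 171 and 21.5. Il1b, the cytokine interleukin-1 beta, read 34.5, 42.7, 74.9 and 53.1 and was not called, with ratios against days 2 and 3 that are lower bounds. Tnf and Nos2 stayed under the floor on every array.

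Of 8 repair products, Tgfbi alone lay above the floor. This secreted matrix protein, which fibroblasts also make, read 45.7, 123, 554 and 348 and was 4.50-fold higher on day 5 than on day 3. Arg1, Chil3, Retnla and Il10, often used to mark repair macrophages, were at most 8.81, 9.36, 35.1 and 19.1. Of 13 further macrophage genes measured at day 14 against day 5, 2 were called higher, beside 4.81% of all genes. The median log2 ratio of the 13 was 0.01, with 6 below 0. Those called were Gpnmb, a glycoprotein of lysosomes, at 243 on day 14 against 119 on day 5, and Mmp12, the macrophage elastase, at 87.8 against 18.9. The Mmp12 value on day 5 is under the floor, so its ratio is a lower bound.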
